A study of Mus musculus with 16 samples.

Results

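The genes described here encode the proteins of the cytosolic ribosome. They are the rows of the count table whose symbol starts with Rpl or Rps and goes on with a number (with at most a closing a, x or l), together with Rplp0, Rplp1, Rplp2 and Rpsa. The rule found 83 genes among 56980 rows, 32 of the small subunit and 51 of the large subunit. Of these, 80 passed the filter on low counts and were tested, and Rpl3l, Rpl10l and Rpl32l were not. Rps4l, Rpl6l and Rpl32l carry such a symbol but are annotated as processed pseudogenes in GENCODE, and 6 ribosomal protein genes with other symbols (such as Fau, Rack1 and Rps3a1) fall outside the rule and are given separately.

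The cells were bone-marrow-derived macrophages (BMDMs), macrophages grown from mouse marrow with the growth factor M-CSF, and were thawed from frozen stocks of 12-week-old mice. WT cells were Grn+/+ and GrnKO cells Grn-/-, and all the mice shared a C57Bl/6J background with the hTfRmu/hu knock-in. Cas9 ribonucleoproteins were delivered by nucleofection with guides against Rosa26, the control edit, or against Mitf, Tfe3 and Tfeb together (TKO), and RNA was taken 10 days later. The 2 genotypes with either edit gave 4 groups (named, for example, WT Rosa26 or GrnKO TKO) of 4 libraries each, with 1 library of each group in each of 4 batches. Every group was transfected and kept in M-CSF, and the edited cells were primary cultures, not clones. The series describes 1 animal per library, 16 in all. The design asks what loss of Grn changes, and what the edit changes with and without Grn.

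A ribosome is built from ribosomal RNAs and one copy of most of its proteins, so the mRNAs of the small (Rps) and large (Rpl) subunit proteins are usually kept at matched levels. Most of these mRNAs begin with a terminal oligopyrimidine (TOP) tract, a C followed by a run of pyrimidines, through which the kinase mTORC1 and the protein Larp1 control their translation and stability. Grn encodes progranulin, a secreted and lysosomal protein, and Mitf, Tfe3 and Tfeb are the MiT/TFE transcription factors, which drive lysosomal genes and which mTORC1 holds in the cytoplasm when nutrients are plentiful.

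The starts of 9 genes are shown because they are the 5 largest decreases after loss of Grn and the 4 smallest differences among genes that were not called, of those with a single start in the RefSeq table. Each sequence runs from 50 bases before the RefSeq start to 20 bases after it, 5′ to 3′, in GRCm38.p6, and capitals mark a C followed by at least 6 more pyrimidines, within 30 bases of the start and with the whole run inside the printed bases. The windows are chrX:74270766-74270835 on the plus strand for Rpl10, chr17:24720013-24720082 on the plus strand for Rps2, chr11:68901516-68901585 on the plus strand for Rpl26, chr3:90213629-90213698 on the minus strand for Rps27 and chr7:45128726-45128795 on the minus strand for Rpl13a. Those of the genes that were not called are chr7:3703991-3704060 on the plus strand for Rps9, chr9:64173337-64173406 on the plus strand for Rpl4, chr1:72711210-72711279 on the plus strand for Rpl37a and chr10:80292381-80292450 on the plus strand for Rps15.
Rpl10: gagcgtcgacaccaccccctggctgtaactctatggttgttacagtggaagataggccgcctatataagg
Rps2: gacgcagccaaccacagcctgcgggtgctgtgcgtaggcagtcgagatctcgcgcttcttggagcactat
Rpl26: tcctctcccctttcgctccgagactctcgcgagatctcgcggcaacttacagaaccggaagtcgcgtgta
Rps27: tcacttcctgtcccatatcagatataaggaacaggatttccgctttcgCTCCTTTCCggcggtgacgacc
Rpl13a: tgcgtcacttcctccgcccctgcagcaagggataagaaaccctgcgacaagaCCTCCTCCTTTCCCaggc
Rps9: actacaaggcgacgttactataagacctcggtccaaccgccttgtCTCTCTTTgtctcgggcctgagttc
Rpl4: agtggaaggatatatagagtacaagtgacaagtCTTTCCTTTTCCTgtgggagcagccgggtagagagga
Rpl37a: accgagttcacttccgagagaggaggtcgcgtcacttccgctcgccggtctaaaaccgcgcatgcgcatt
Rps15: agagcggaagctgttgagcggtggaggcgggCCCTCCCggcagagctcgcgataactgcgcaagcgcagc
Such a run was present in the printed bases of Rps27 and Rpl13a among the genes that fell and of Rps9, Rpl4 and Rps15 among those that were not called. Rpl26 also had a run within 30 bases of its start, but that run ends beyond the printed bases and is not marked. Over all 61 ribosomal protein genes in the RefSeq table, 38 (62.3%) had a run of at least 7 pyrimidines starting with C within 30 bases of a start on the coding strand, against 29.9% of 17492 genes. The run was found for 29 of the 49 genes lower after loss of Grn and for 8 of the 9 that were not called. In the whole 300-base windows, read on both strands, CCGGAAG, the core recognised by ETS factors, occurred in 25 of 61 genes (41.0%) against 13.0% of all genes. CACGTG, an E-box of the kind MiT/TFE factors bind, occurred in 6 of 61 (9.84%) against 8.91% of all genes, namely in Rpl13a, Rpl14, Rpl19, Rpl23, Rpl34 and Rps19. TATAAA occurred in 7 of 61 (11.5%) against 14.8%. CACGTG and TCACGTGA overlap, and the longer form was found in 1 of the 61 genes, Rpl34, and in 1.41% of all genes.

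Library totals ran from 7069445 to 32969401 counts. The GrnKO Rosa26 libraries were deep (28431505 to 32969401 counts), while WT Rosa26 held 7069445 to 22469333. Levels are given in CPM, counts scaled to a common library total. With the control edit, Grn itself averaged 3244 ± 354 CPM in WT cells and 48.6 ± 4.8 in GrnKO cells (SD, n = 4). Small edits at a guide site need not change a 3′ tag, so the edit is not checked by the counts of its target genes. After it Tfe3 fell by 0.90 on the log2 scale in WT (adjusted p = 0.0108) and by 0.51 in GrnKO (adjusted p = 0.0351). The values of Mitf and Tfeb are not given here, and the fall of Tfe3 does not speak for them. All 13 macrophage markers were above 10 CPM. Of the markers of other cell types, Pf4, which macrophages also express, and S100a8 exceeded 10 CPM, and Hba-a1 was at 0. The WT batch 2 libraries held both Y-linked Ddx3y and, at 212 to 218 CPM, the X-inactivation RNA Xist. The labels give male mice, yet Y-linked Ddx3y exceeded 10 CPM in 6 libraries (both libraries of WT batch 2, WT batch 3 and GrnKO batch 4) and was at most 1.23 CPM in the other 10, so WT and GrnKO libraries are not balanced for it. Results between genotypes are therefore also given for the 10 libraries without Y-linked transcripts. These are the WT libraries of batches 1 and 4 and the GrnKO libraries of batches 1, 2 and 3. Only batch 1 holds both genotypes there. With the batch term, their comparisons between genotypes thus rest on batch 1, which includes the shallowest library, WT Rosa26 of batch 1.

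Ribosomal protein mRNA took a smaller part of the library in Grn-deficient macrophages with the control edit. The 83 genes together held 9.17, 9.44, 8.36 and 8.27% of counts in batches 1 to 4 of WT Rosa26 and 9.03, 9.13, 9.34 and 8.45% in WT TKO. In GrnKO Rosa26 they held 6.96, 6.66, 6.72 and 6.25%, and in GrnKO TKO 8.19, 7.91, 8.2 and 7.23%. The GrnKO Rosa26 libraries were the 4 lowest of the 16 and overlapped no other group, the GrnKO TKO libraries lay above all of them and below every WT library, and the 2 WT groups overlapped. Within batches the share differed by -0.50 to -0.31 on the log2 scale after loss of Grn in control-edited cells (mean -0.40 ± 0.077, SD, n = 4 batches) and by 0.21 to 0.29 after the edit in GrnKO (mean 0.24 ± 0.032). After the edit in WT it differed by -0.049 to 0.16, in different directions between batches. The share is relative to all other counts of a library and gives no amount per cell. In RNA from whole cultures, less of these mRNAs in each cell and fewer of the cells richest in them cannot be told apart.

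Depth and macrophage markers moved with the groups too. The summed macrophage markers stood at 7678 to 8345 CPM in GrnKO Rosa26, 9974 to 11010.2 in GrnKO TKO and 10436.0 to 12762 in WT. Of the 13, 7 were called lower and 1 higher after loss of Grn, against 21.5% and 23.1% of all tested genes. After the edit in GrnKO 9 were higher and 1 lower, against 14.8% and 17.8% of all tested genes. In WT the edit left 5 higher and none lower, against 2.18% and 1.16%. Mitochondrially encoded transcripts took 1.27 to 1.82% of counts, with all groups overlapping. The parts of depth and of the macrophage markers in the ribosomal protein differences were not tested.

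The subunits kept step. Small-subunit genes held 4.07 ± 0.268% (SD, n = 4) of counts in WT Rosa26 and 3.09 ± 0.138% in GrnKO Rosa26, and large-subunit genes 4.74 ± 0.318% and 3.56 ± 0.158%. The ratio of large to small summed counts stayed between 1.15 and 1.18 in all 16 libraries. Its within-batch log2 difference was -0.011 ± 0.0070 (SD, n = 4) after loss of Grn and 0.016 ± 0.016 after the edit in GrnKO, against -0.40 and 0.24 for the share itself.

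**Figure D1:**
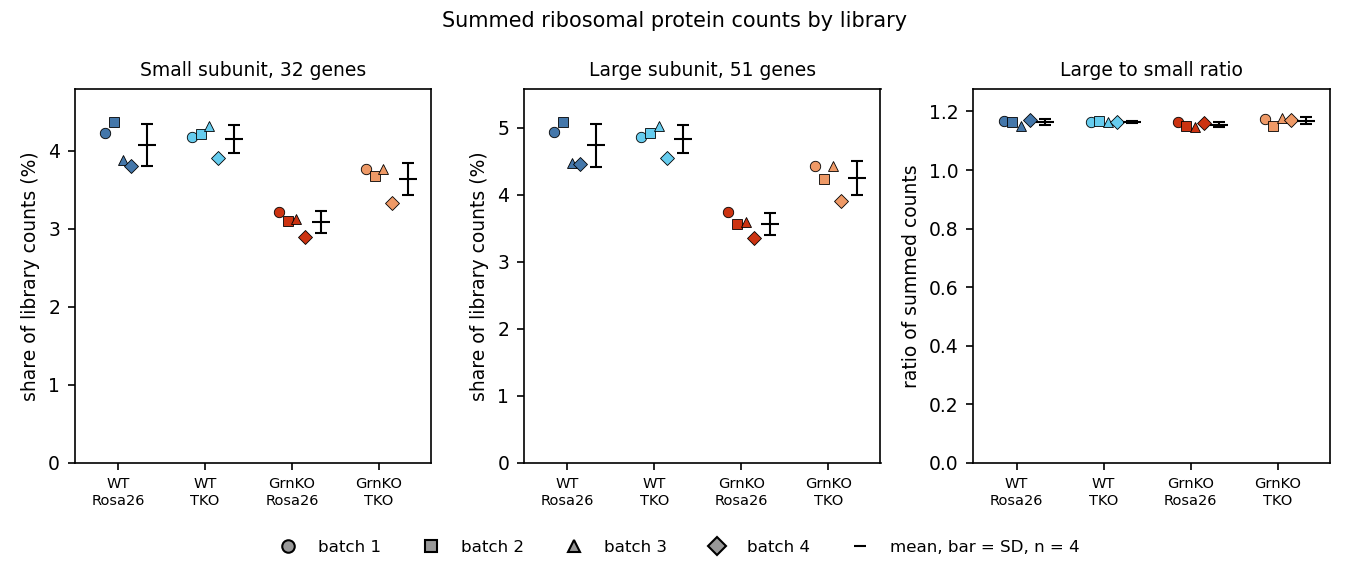
Summed small-subunit and large-subunit counts as a percent of library counts and the ratio of large to small summed counts (vertical axes) in the 4 groups (horizontal axis), with 1 point per library, marked by batch, and the mean with its SD (n = 4). Both shares are lowest in the 4 GrnKO Rosa26 libraries, while the ratio lies between 1.15 and 1.18 in every library.

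Most single ribosomal protein genes were lower after loss of Grn in control-edited macrophages. Of the 80 tested, 66 fell and 2 rose (edgeR quasi-likelihood test, Benjamini-Hochberg adjusted p under 0.05 over all 15385 genes tested), where 21.5% of all tested genes fell and 23.1% rose. The median log2 fold change was -0.44, against 0.0044 over all tested genes. By subunit, 27 of 32 small-subunit genes fell with a median of -0.44, and 39 of 48 large-subunit genes with a median of -0.45. In 59 of the 80 every GrnKO Rosa26 library lay below every WT Rosa26 library, a separation found for 15.0% of all tested genes, and in none did every one lie above (19.6% of all tested genes). The batch medians were -0.51, -0.58, -0.37 and -0.45, so each batch was lower. In the 10 libraries without Y-linked transcripts 52 genes were lower and 2 higher, where 5317 of all genes tested were called against 6858 in the 16 libraries. That comparison rests on batch 1, the only batch with both genotypes among the 10 libraries.

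Rpl10, an X-linked protein of the large subunit that sits near the peptidyl transferase centre and is needed for late subunit maturation, stood at 2000.5, 1574, 1352 and 1426 CPM for WT Rosa26 (batches 1 to 4), 1535, 1367, 1592 and 1226 for WT TKO, 822, 608, 769 and 619 for GrnKO Rosa26 and 1269, 825, 1209 and 976 for GrnKO TKO. Every GrnKO Rosa26 library was below every other library, and the GrnKO TKO libraries lay between, except that batch 1 exceeded the WT TKO library of batch 4. The log2 fold change after loss of Grn was -1.18 ± 0.10 (SE), adjusted p = 3.19e-08. Rps2, a small-subunit protein at the mRNA entry channel, stood at 954, 637, 586 and 532 CPM for WT Rosa26 (batches 1 to 4), 713, 559, 766 and 545 for WT TKO, 429, 304, 384 and 268 for GrnKO Rosa26 and 662, 396, 578 and 447 for GrnKO TKO. The WT Rosa26 library of batch 1 was the highest, and the GrnKO Rosa26 libraries lay below both WT groups. The change was -0.96 ± 0.10 (SE), adjusted p = 6.17e-07.

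Rpl26, which lies beside the exit of the peptide tunnel and is the main ribosomal target of the ubiquitin-like protein Ufm1, stood at 1046, 1095, 766 and 823 CPM for WT Rosa26 (batches 1 to 4), 1042, 1056, 943 and 817 for WT TKO, 572, 487, 489 and 442 for GrnKO Rosa26 and 828, 759, 841 and 691 for GrnKO TKO. The 4 GrnKO Rosa26 libraries were the lowest of all, and the GrnKO TKO libraries overlapped both WT groups. It fell by 0.90 on the log2 scale after loss of Grn (SE 0.084, adjusted p = 1.53e-07). Rps27, a zinc-finger protein of the small subunit, stood at 1246, 1301, 1081 and 1042 CPM for WT Rosa26 (batches 1 to 4), 1151, 1305, 1238 and 999 for WT TKO, 679, 669, 664 and 560.3 for GrnKO Rosa26 and 938, 891, 946 and 773 for GrnKO TKO. Here all 8 GrnKO libraries were below all 8 WT libraries, with the Rosa26 libraries lowest. Its change, -0.86 ± 0.068 (SE), adjusted p = 2.15e-08, had the smallest p of the ribosomal protein genes in this comparison.

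Rpl35a, a large-subunit gene mutated in some people with Diamond-Blackfan anaemia, had 1536 to 2154 CPM in WT Rosa26 and 855 to 1144 in GrnKO Rosa26, a change of -0.86 ± 0.076 (SE), adjusted p = 8.35e-08. Rpl13a, whose human protein leaves the ribosome to silence inflammatory mRNAs in myeloid cells treated with interferon gamma, stood at 3232, 2875, 1893 and 1975 CPM for WT Rosa26 (batches 1 to 4), 2467, 2734, 2771 and 1952 for WT TKO, 1537, 1308, 1433 and 1209 for GrnKO Rosa26 and 2372, 1616, 2208 and 1464 for GrnKO TKO. The WT Rosa26 libraries of batches 1 and 2 were far above those of batches 3 and 4, and the GrnKO Rosa26 libraries were below all of them. Its within-batch differences ran from -1.14 to -0.40, with a fitted change of -0.85 ± 0.13 (SE), adjusted p = 0.000125. Rpl6l, annotated as a processed pseudogene, had the lowest fold change of the list, -1.50 ± 0.19 (SE), adjusted p = 6.07e-06, from 5.86 to 15.4 CPM in WT Rosa26 and 2.54 to 4.19 in GrnKO Rosa26.

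Of the 80 genes, 12 were not called after loss of Grn. Rps9, a small-subunit protein at the mRNA entry channel that bears on decoding accuracy, stood at 1693, 2054, 1712 and 1755 CPM for WT Rosa26 (batches 1 to 4), 1919, 2113, 1828 and 2134 for WT TKO, 1859, 1886, 1782 and 1769 for GrnKO Rosa26 and 1710.2, 1682, 1893 and 1586 for GrnKO TKO. The groups overlapped, and the fold change was 0.019 ± 0.075 (SE), adjusted p = 0.859. Rpl4, which narrows the peptide tunnel, differed by -0.036 ± 0.072 (SE), adjusted p = 0.717, and Rps15, in the head of the small subunit near the decoding centre, by -0.12 ± 0.066 (SE), adjusted p = 0.14. The others not called were Rpl8, Rpl13, Rpl27a, Rpl37a, Rpl39, Rpl39l, Rplp1, Rps21 and Rps29, with log2 differences between -0.16 and 0.24. A gene that misses the threshold is not shown to be unchanged, but for Rps9 the SE of 0.075 is small beside the median decrease of the other genes.

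The 2 genes that rose were Rpl36 and Rps4l. Rpl36, a large-subunit protein, stood at 75.4, 103, 99.1 and 82.3 CPM for WT Rosa26 (batches 1 to 4), 93.2, 99.4, 100.2 and 95.4 for WT TKO, 111, 116, 101 and 97.3 for GrnKO Rosa26 and 88.3, 106, 105 and 85.4 for GrnKO TKO. Its WT Rosa26 library of batch 1, the shallowest of the series, was lowest, and the groups overlapped; the change was 0.25 ± 0.08 (SE), adjusted p = 0.0179, and over the batches it ran from 0.032 to 0.55. Its call was lost at 0.14 without batch 1, 0.22 without batch 4, 0.18 without the WT or the GrnKO library of batch 1, 0.23 without the WT Rosa26 library of batch 4 or with only the groups compared, and 0.24 without the GrnKO Rosa26 library of batch 2 or without the batch term. Rps4l, annotated as a processed pseudogene, had 1.54, 6.02, 5.86 and 7.68 CPM in WT Rosa26 and 6.79, 8.52, 9.09 and 9.44 in GrnKO Rosa26. The batch 1 WT library was again the lowest and the groups overlapped, with a change of 0.66 ± 0.20 (SE), adjusted p = 0.0135, a call lost without the batch term.

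**Figure D2:**
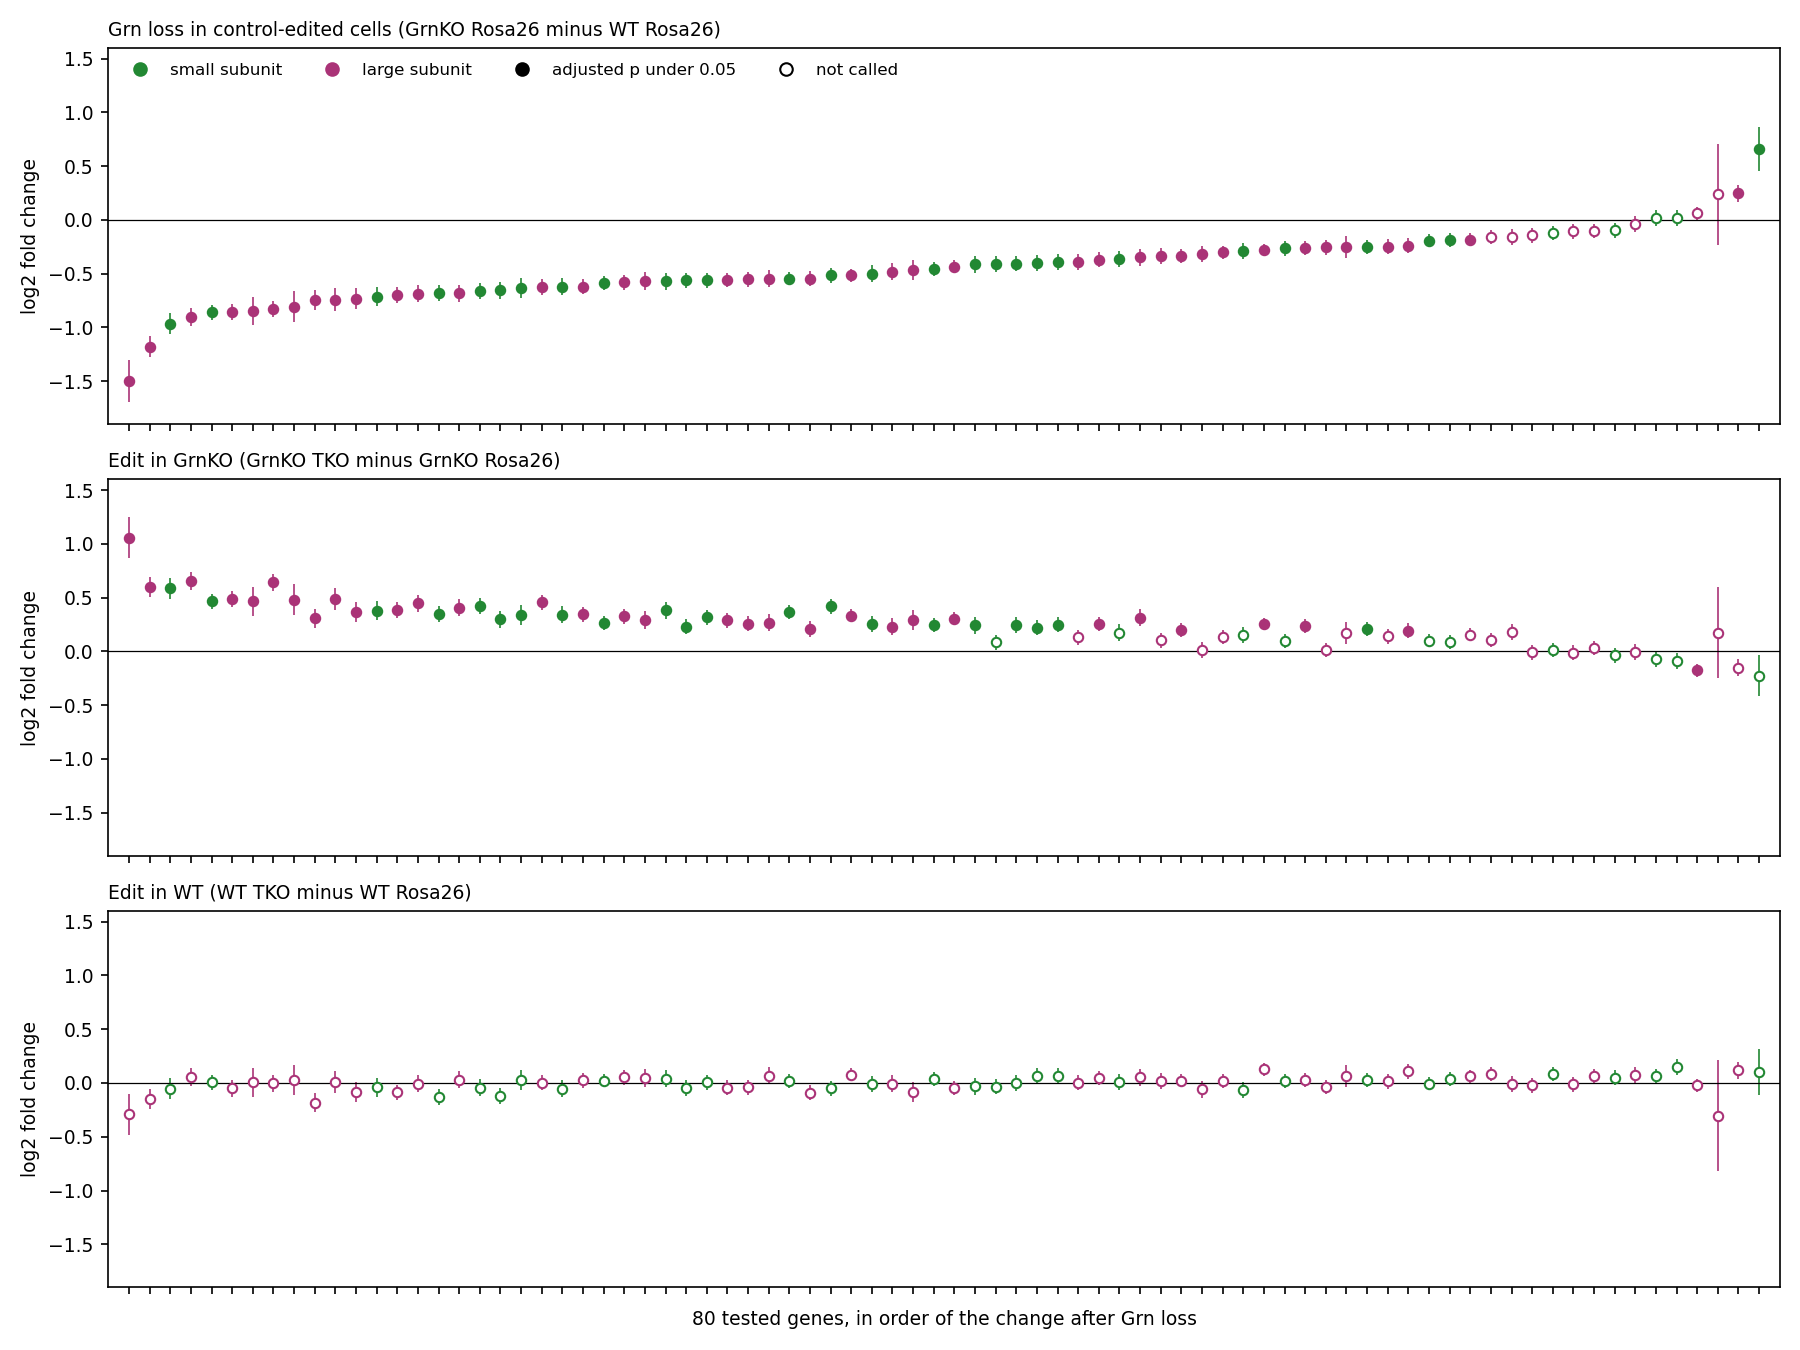
Log2 fold change (vertical axis, bars are SE) of the 80 tested ribosomal protein genes, ordered along the horizontal axis by the change after loss of Grn in control-edited cells, in 3 comparisons; filled points have an adjusted p under 0.05. In the top panel 66 genes are filled below 0 and 2 above it, in the middle panel 52 are filled above 0 and 1 below it, and in the bottom panel none is filled.

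In GrnKO macrophages, most ribosomal protein genes were higher after the edit of Mitf, Tfe3 and Tfeb. Of the 80 genes, 52 rose and 1 fell (edgeR quasi-likelihood test), where 14.8% of all tested genes rose and 17.8% fell. The median was 0.25, against -0.0049 over all genes, and the batch medians were 0.26, 0.22, 0.31 and 0.22. Of the small-subunit genes 21 of 32 rose with a median of 0.25, and of the large-subunit genes 31 of 48 with a median of 0.26. The GrnKO TKO libraries lay wholly above the GrnKO Rosa26 libraries for 32 genes, a separation found for 13.7% of all genes, and wholly below for 1, Rplp1 (18.1% of all genes). Among the 10 libraries without Y-linked transcripts 52 genes were called, all higher, where 4916 of all genes tested were called against 5011. This comparison shares the GrnKO Rosa26 libraries with the one before, so a high or low value there moves both in opposite directions, and the values are given side by side only.

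Rpl26 rose from 498 ± 54.1 to 779.6 ± 69.1 CPM (SD, n = 4), a log2 change of 0.65 ± 0.084 (SE), adjusted p = 1.62e-05. The lowest edited library was above the highest control library. Rpl10 changed by 0.60 ± 0.094 (SE), adjusted p = 0.000136, Rps2 by 0.59 ± 0.10 (SE), adjusted p = 0.000259, and Rps27 by 0.46 ± 0.068 (SE), adjusted p = 6.17e-05. Rps27 did not overlap between the GrnKO groups, Rpl10 fell just short of overlap (822 against 825 CPM), while for Rps2 the edited library of batch 2 lay below the control library of batch 1. Rpl6l rose by 1.06 ± 0.19 (SE), adjusted p = 0.000406.

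The gene that fell was Rplp1, an acidic protein of the ribosomal stalk, which stood at 1693, 1779.8, 1757 and 1646 CPM for WT Rosa26 (batches 1 to 4), 1645, 1616, 1828 and 1680.0 for WT TKO, 1859, 1795, 1817 and 1710.3 for GrnKO Rosa26 and 1599.8, 1616, 1682 and 1464 for GrnKO TKO. Every GrnKO TKO library was below every GrnKO Rosa26 library, with a log2 change of -0.18 ± 0.061 (SE), adjusted p = 0.0336, while after loss of Grn in control-edited cells the same gene differed by 0.063 ± 0.061 (SE), adjusted p = 0.427. Among the 27 genes not called after the edit were Rpl3, at 0.013 ± 0.067 (SE), adjusted p = 0.902, and Rps4x, at 0.10 ± 0.066 (SE), adjusted p = 0.271, both of which had fallen after loss of Grn. Rplp1 is a small change near the threshold: its call was lost without batch 1, 2 or 4, without any 1 of the GrnKO libraries except the GrnKO TKO library of batch 2, without the WT Rosa26 library of batch 4, without the batch term, in the libraries without Y-linked transcripts, with named pseudogenes added, and under RLE scaling or a filter at a mean of 5 CPM, with values between -0.19 and -0.12.

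In WT macrophages the same edit gave no call among the 80 genes with edgeR, where 3.35% of all tested genes were called (1.16% lower and 2.18% higher). The WT groups overlapped for all 80 genes, where 2.28% of all tested genes were wholly lower and 3.34% wholly higher. The median was 0.0075, and 1 gene had an unadjusted p under 0.05. DESeq2 and limma-trend on the authors' CPM also called 0. The batch medians were -0.065, -0.079, 0.18 and 0.027, so 2 batches were lower and 2 higher. Fold changes ran from -0.31 for the scarce Rpl39l to 0.15 for Rps9, and for Rpl23a, which helps dock the signal recognition particle at the tunnel exit, the difference was 0.13 ± 0.059 (SE), adjusted p = 0.277.

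The test of the difference between the edit's effect in GrnKO and in WT called 26 of the 80 genes, all with a larger rise in GrnKO, where 5.80% of all tested genes were called in that direction and 7.63% in the other. The median difference was 0.25, against -0.0055 over all genes. It was 0.75 ± 0.13 (SE), adjusted p = 0.00185 for Rpl10 and 0.60 ± 0.12 (SE), adjusted p = 0.00337 for Rpl26. Both rose after the edit in GrnKO, and neither was called after the edit in WT. The count depended on the libraries: it was 2 without batch 4, 6 without batch 1, 12 without batch 2 and 37 without batch 3. Calls over all genes moved in the same fits, from 2067 to 283, 511, 1175 and 2838. For the ribosomal protein genes the count was 16 without the WT Rosa26 library of batch 2 or the GrnKO Rosa26 library of batch 1, 17 without WT TKO of batch 1 or 4, GrnKO Rosa26 of batch 2 or GrnKO TKO of batch 3, 6 without the batch term, and 41 (40 with a larger and 1 with a smaller change in GrnKO) in the 10 libraries without Y-linked transcripts. The call of Rpl26 was lost without batch 4 (0.61).

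**Figure D3:**
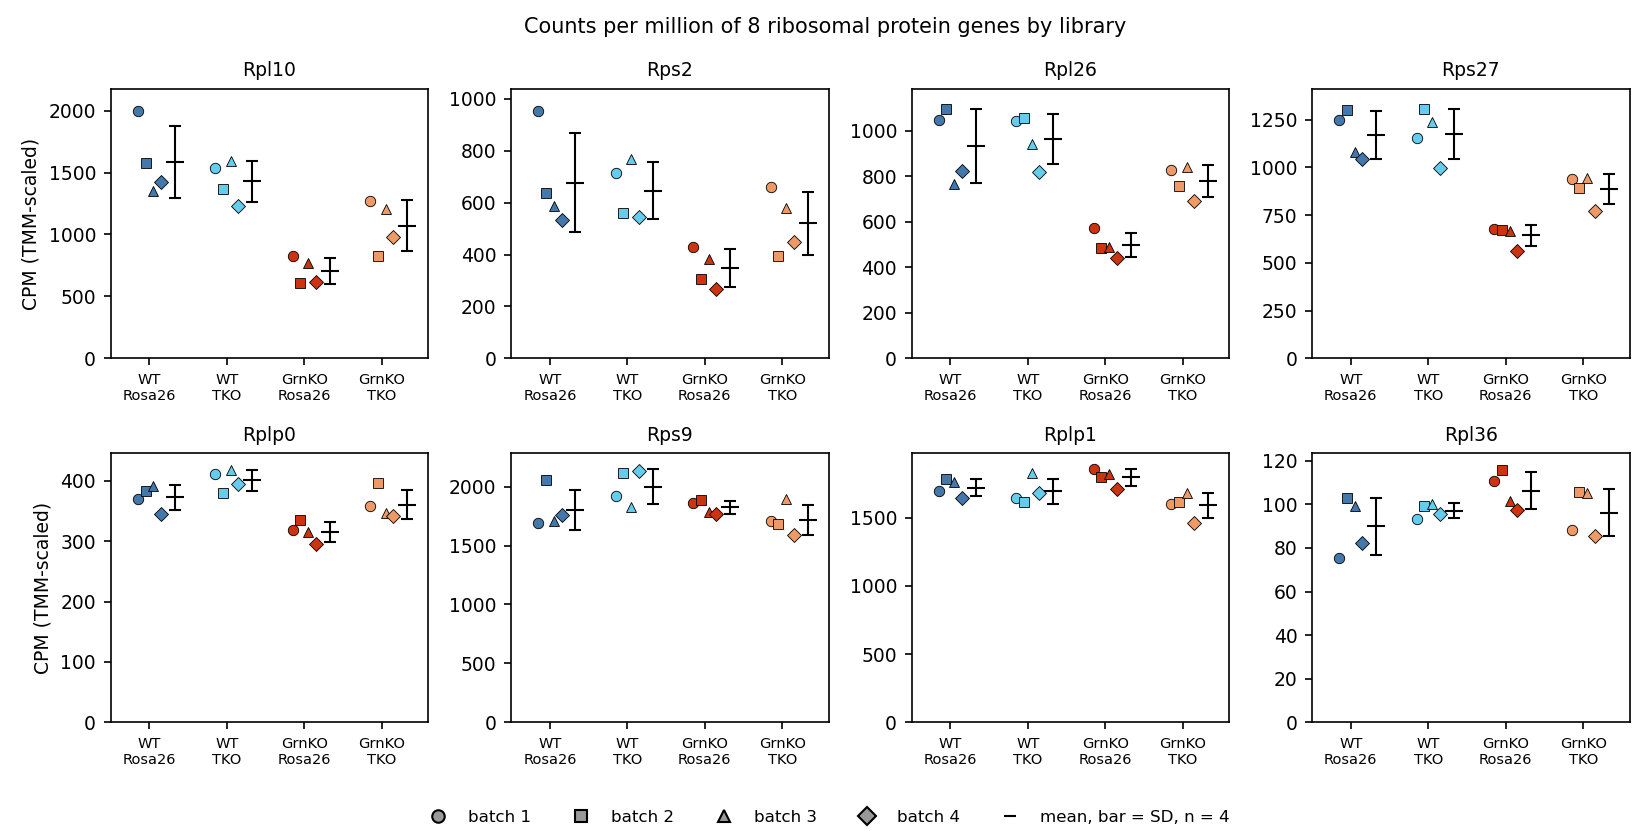
CPM scaled by TMM (vertical axes), of 8 ribosomal protein genes in the 4 groups (horizontal axes), with 1 point per library, marked by batch, and the mean with its SD (n = 4). Rpl10, Rps2, Rpl26, Rps27 and Rplp0 are lowest in GrnKO Rosa26, whereas Rps9, Rplp1 and Rpl36 are not.

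Edited GrnKO cells stayed between the other groups. The GrnKO TKO mean lay above GrnKO Rosa26 and below both WT means for 69 of the 80 genes, an order found for 20.9% of all tested genes, and GrnKO Rosa26 had the lowest mean for 70 (37.6% of all genes). Against control-edited WT cells 32 genes were lower and none higher in GrnKO TKO, where 6.25% of all tested genes were lower and 6.43% higher, with a median of -0.19. The libraries of these groups did not overlap for 5 genes, all lower, where 3.85% of all tested genes were wholly lower and 5.70% wholly higher. Rpl10 differed by -0.58 ± 0.095 (SE), adjusted p = 0.000734, and Rpl10a, a protein of the L1 stalk where spent tRNA leaves, by -0.44 ± 0.091 (SE), adjusted p = 0.00393, a call lost without batch 2 (-0.34), without the batch term (-0.45) and with only the groups compared (-0.44). Against WT TKO, 19 genes were lower and none higher, where 2.45% of all tested genes were lower and 2.53% higher, with a median of -0.21. The groups did not overlap for 15 genes, all lower, where 3.83% of all tested genes were wholly lower and 4.60% wholly higher. Rps27 differed by -0.40 ± 0.068 (SE), adjusted p = 0.00191 and Rpl10 by -0.43 ± 0.094 (SE), adjusted p = 0.0122 there. Both counts moved with single libraries and batches. Against control-edited WT cells the count was 12, 2 and 10 without batches 1, 2 and 4, 15, 10 and 21 without the WT Rosa26 library of batches 1, 2 and 4, 20, 11 and 16 without the GrnKO TKO library of batches 1, 2 and 4, and 2 without the batch term. Against WT TKO it was 0 and 1 without batches 2 and 4, and 2, 2 and 6 without the WT TKO library of batches 2, 3 and 4. There it was also 11, 2 and 5 without the GrnKO TKO library of batches 1, 2 and 4, 11 without GrnKO Rosa26 of batch 2, 36 and 12 without WT Rosa26 of batches 3 and 4, and 1 without the batch term. Calls over all genes moved too, from 1950 to 1126, 419 and 889 without batches 1, 2 and 4 against control-edited WT cells, and from 767 to 120 and 209 without batches 2 and 4 against WT TKO. In the 10 libraries without Y-linked transcripts, where only batch 1 holds both genotypes, the counts were 14 (13 lower and 1 higher, with 1375 over all genes) and 0 (112 over all genes). The calls of Rps27 (-0.31) and Rpl10 (-0.34) against WT TKO were lost there as well as without batch 2. That of Rpl10 was also lost without batch 4, the WT TKO library of batch 2 or 3, the GrnKO TKO library of batch 2 or the batch term (-0.46 to -0.35).

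The proteins of the stalk that recruits elongation factors did not move as a unit. Rplp0, its base, stood at 369, 383, 392 and 346 CPM for WT Rosa26 (batches 1 to 4), 411, 379, 419 and 395 for WT TKO, 318, 335, 315 and 295 for GrnKO Rosa26 and 359, 396, 347 and 342 for GrnKO TKO. All GrnKO Rosa26 libraries were below the WT libraries, and the edited GrnKO libraries lay above them, with log2 changes of -0.24 ± 0.067 (SE), adjusted p = 0.00675 after loss of Grn and 0.19 ± 0.067 (SE), adjusted p = 0.0323 after the edit in GrnKO. Rplp2 fell after loss of Grn, with a log2 change of -0.39 ± 0.072 (SE), adjusted p = 0.00023, with 3270.2 ± 244 CPM in WT Rosa26 and 2500.4 ± 177 in GrnKO Rosa26 (SD, n = 4). After the edit in GrnKO it differed by 0.13 ± 0.072 (SE), adjusted p = 0.171. Rplp1, partner of Rplp2 in the stalk, is the exception given above. The Rplp0 call after loss of Grn was lost in the libraries without Y-linked transcripts (-0.21), with no filter on low counts (-0.13) and with limma-trend on the authors' CPM (-0.15). After the edit in GrnKO it was not called with no filter, with limma-trend or without the batch term (0.12 to 0.19), nor without batch 1, 2 or 4, any GrnKO TKO library but batch 3, or any GrnKO Rosa26 library but batch 2 (0.15 to 0.21). Rpsa, a small-subunit protein also known as the laminin receptor precursor, stood at 692, 650.3, 676 and 549 CPM for WT Rosa26 (batches 1 to 4), 658, 621, 766 and 636 for WT TKO, 500.5, 517, 489 and 442 for GrnKO Rosa26 and 607, 561, 578 and 569 for GrnKO TKO. The GrnKO Rosa26 libraries were the 4 lowest, with no overlap with any other group, and Rpsa changed by -0.39 ± 0.073 (SE), adjusted p = 0.000248 after loss of Grn and 0.25 ± 0.073 (SE), adjusted p = 0.0131 after the edit in GrnKO. The latter call was lost without batch 1 (0.25), batch 4 (0.23) or the GrnKO TKO library of batch 4 (0.22), and with no filter on low counts (0.18).

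Rpl5 and Rpl11, which with the 5S RNA bind Mdm2 and so couple ribosome assembly to p53, fell after loss of Grn, with log2 changes of -0.52 ± 0.063 (SE), adjusted p = 3.64e-06 and -0.34 ± 0.072 (SE), adjusted p = 0.000897 respectively; the call of Rpl11 was lost in the libraries without Y-linked transcripts (-0.24). Rpl5 then changed by 0.33 ± 0.063 (SE), adjusted p = 0.000627 after the edit in GrnKO and Rpl11 by 0.10 ± 0.072 (SE), adjusted p = 0.295. Rps19, the gene most often mutated in Diamond-Blackfan anaemia, changed by -0.63 ± 0.094 (SE), adjusted p = 2.88e-05. Rps6, the substrate of the S6 kinases, fell from 344 ± 26.7 to 259 ± 11 CPM (SD, n = 4), a log2 change of -0.41 ± 0.073 (SE), adjusted p = 0.000182. Of 14 genes listed for the p53 pathway, 3 rose and 4 fell after loss of Grn, near the shares of all tested genes, with a median of 0.0026. Their log2 fold changes ran from -0.52 to 0.88. The inhibitor of the cell cycle Cdkn1a, at the low end, was at -0.52 ± 0.10 (SE), adjusted p = 0.000331, and does not stand for the list.

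The 4 X-linked genes differed from one another. Beside Rpl10, Rpl36a at the tRNA exit site fell after loss of Grn (-0.57 ± 0.085 (SE), adjusted p = 2.87e-05), as did Rps4x, which in humans has a copy on the Y chromosome (-0.27 ± 0.066 (SE), adjusted p = 0.00309), whose call was lost with no filter on low counts (-0.15) and with limma-trend on the authors' CPM (-0.13). Rpl39, a small protein lining the peptide tunnel, had 385, 397, 442 and 357 CPM in WT Rosa26 and 357, 365, 349 and 354 in GrnKO Rosa26. The groups overlapped, and the difference was -0.14 ± 0.071 (SE), adjusted p = 0.108. The median over the X-linked genes was -0.42, and over the 14 genes on chromosome 7 it was -0.48.

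Paralogues with tissue-restricted roles were scarce. Rpl3l, known from striated muscle, and Rpl10l, known from testis, reached at most 0.493 and 0.066 CPM in any library and were not tested, and Rpl39l, also abundant in testis, had 0.426 to 2.24 CPM. The ubiquitous relative of Rpl3l, Rpl3, which shapes the peptidyl transferase centre, changed by -0.26 ± 0.067 (SE), adjusted p = 0.00446 after loss of Grn, a call lost without batch 2 (-0.21), in the libraries without Y-linked transcripts (-0.24) and with no filter on low counts (-0.14). Rps27l, a p53-inducible relative of Rps27, stood at 185, 205, 212 and 176 CPM for WT Rosa26 (batches 1 to 4), 197, 193, 195 and 168 for WT TKO, 154, 131, 136 and 124 for GrnKO Rosa26 and 199, 188, 179 and 163 for GrnKO TKO. It was lowest in GrnKO Rosa26 with no overlap, and the edited GrnKO libraries overlapped both WT groups, with changes of -0.52 ± 0.071 (SE), adjusted p = 1.28e-05 and 0.42 ± 0.071 (SE), adjusted p = 0.000252 after the edit in GrnKO. Against WT TKO it differed by -0.048 ± 0.071 (SE), adjusted p = 0.775, beside the -0.40 of Rps27. Rpl22, best known for its role in lymphocyte development, changed by -0.74 ± 0.10 (SE), adjusted p = 1.94e-05 after loss of Grn and 0.49 ± 0.10 (SE), adjusted p = 0.00173 after the edit in GrnKO. Its paralogue Rpl22l1 changed by -0.47 ± 0.088 (SE), adjusted p = 0.000256 and -0.047 ± 0.088 (SE), adjusted p = 0.719.

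Ribosomal protein genes have many processed pseudogenes, and reads of near-identical copies can be shared out among rows by the counting. The table held 320 rows named as pseudogenes of one of the 83 genes, and a search of the last 200 bases of each transcript found 157 near-identical pseudogene rows (at least 97% identity); 65 genes had a copy of either kind. Copies held 2.86 to 3.01 counts per 100 counts of the genes in GrnKO Rosa26 and 3.17 to 4.41 in the other groups, so the copies were lower there by more than the genes were. The 33 genes with at least 1 copy count per 100 had a median log2 fold change of -0.58 after loss of Grn, with 31 lower, and the 47 with fewer had a median of -0.35, with 35 lower. With every copy added to its gene 70 genes were called after loss of Grn in place of 68.

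For a few genes the copies changed the size of the result. Rpl10-ps3 had 631 to 658 CPM in WT Rosa26 and 560.3 to 608 in GrnKO Rosa26, a difference of -0.14 ± 0.066 (SE), adjusted p = 0.101, beside the -1.18 of Rpl10, and with all copies added Rpl10 changed by -0.81 ± 0.075 (SE). In Rps6 the copies went the other way. They held 255 CPM on average in WT Rosa26 and 101 in GrnKO Rosa26, and with them Rps6 changed by -0.74 in place of -0.41. Rps2-ps10 differed by 0.04 ± 0.086 (SE), adjusted p = 0.736, and with its copies Rps2 changed by -0.89. Rpl36 had 78.9 copy counts per 100, mostly on Rpl36-ps12, and with them its rise was 0.21 (adjusted p = 0.0327). Fold changes of these genes are therefore uncertain in size.

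**Figure D4:**
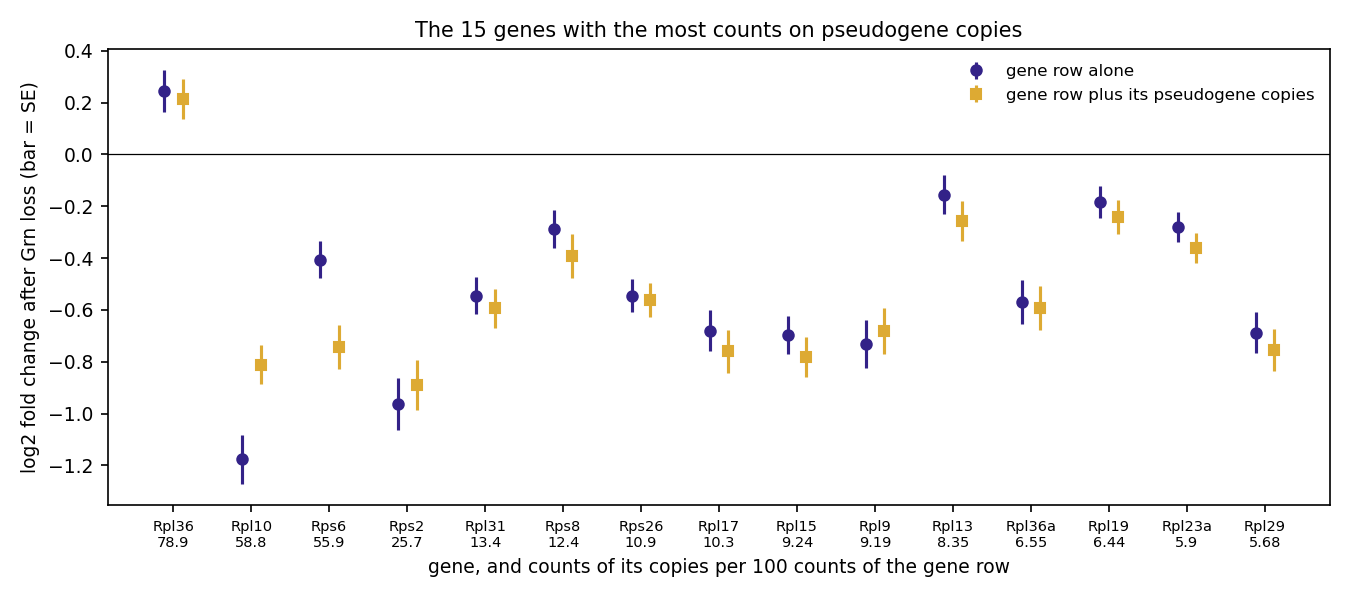
Log2 fold change after loss of Grn in control-edited cells (vertical axis, bars are SE) for the 15 ribosomal protein genes with the most counts on pseudogene copies (horizontal axis, with copy counts per 100 counts of the gene), for the gene row alone and with its copies added. Rpl10 moves from -1.18 to -0.81 and Rps6 from -0.41 to -0.74, and Rpl36 stays above 0.

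Across the 80 genes the log2 fold change after loss of Grn had a Pearson r of -0.23 and a Spearman rho of -0.13 with the mean log2 CPM, and -0.24 and -0.33 with the number of pseudogene copies. The points share all their libraries, and the genes are not independent replicates. Deposited counts carry 2 significant digits, which for 77 of the genes puts the median half-step at 2.08% of the count and the largest at 5%, or 0.070 on the log2 scale.

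After loss of Grn, ribosomal protein genes outside the naming rule mostly behaved like those inside it. Of 6, 5 fell and 1 rose after loss of Grn (median -0.44), where 21.5% of all tested genes fell and 23.1% rose. The likeness was weaker after the edit in GrnKO. There 3 of the 6 rose and none fell, where 14.8% of all tested genes rose and 17.8% fell. The 3 that were not called had values below 0, and the median was 0.13, against 0.25 inside the rule. None of the 6 was called for the difference between the edit's effects in GrnKO and in WT. Fau, which encodes a ribosomal protein fused to a ubiquitin-like protein, changed by -0.65 ± 0.11 (SE), adjusted p = 7.69e-05 after loss of Grn. Rack1, a scaffold on the small subunit, changed by -0.41 ± 0.062 (SE), adjusted p = 3.57e-05. The exception was Rps3a1, a small-subunit protein, with 561 ± 53.3 CPM in WT Rosa26 and 656 ± 12.2 in GrnKO Rosa26 (SD, n = 4), which rose by 0.23 ± 0.077 (SE), adjusted p = 0.0212.

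Other mRNAs and RNAs known to start with a TOP tract were lower too, with exceptions. Of 26 such genes, 15 fell and 5 rose after loss of Grn (median -0.31), where 21.5% of all tested genes fell and 23.1% rose. After the edit in GrnKO 8 rose and none fell (median 0.10), where 14.8% of all tested genes rose and 17.8% fell. Eif4a2, an RNA helicase of translation initiation, changed by -1.01 ± 0.12 (SE), adjusted p = 8.39e-06, Nap1l1, a histone chaperone, by -0.70 ± 0.078 (SE), adjusted p = 1.30e-06, and Snhg1, a noncoding host of small nucleolar RNAs, by -1.23 ± 0.17 (SE), adjusted p = 4.53e-05. Eef2, the elongation factor that moves the ribosome along, went the other way, at 0.41 ± 0.069 (SE), adjusted p = 0.0001, as did Eif3a at 0.28 ± 0.071 (SE), adjusted p = 0.00386. Of 20 other initiation and termination factors, 4 fell and 4 rose (median 0.05).

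Genes that build ribosomes were more often higher than lower after loss of Grn. Of 59 assembly factors and subunits of RNA polymerase I, 23 rose and 5 fell (median 0.21), where 23.1% of all tested genes rose and 21.5% fell. After the edit in GrnKO 4 rose and 10 fell (median -0.044), where 14.8% of all tested genes rose and 17.8% fell, so the share that fell was near that of all genes. Fbl, which methylates ribosomal RNA, had 96 ± 21.4 CPM for WT Rosa26, 165 ± 11.3 for GrnKO Rosa26 and 118 ± 17.1 in GrnKO TKO (SD, n = 4), rising by 0.79 ± 0.11 (SE), adjusted p = 1.49e-05 after loss of Grn. Rrn3, an initiation factor of RNA polymerase I, rose by 0.76 ± 0.13 (SE), adjusted p = 8.40e-05. Of 78 mitochondrial ribosomal proteins, 21 rose and 11 fell after loss of Grn (median 0.11), against 23.1% and 21.5% of all tested genes. Among them Mrpl12 was at 0.96 ± 0.10 (SE), adjusted p = 6.25e-07. After the edit in GrnKO 2 of the 78 rose and 22 fell, against 14.8% and 17.8% of all tested genes. Short nuclear-encoded subunits of the respiratory chain, 49 in all, had 15 higher and 4 lower after loss of Grn (median 0.073), against the same 23.1% and 21.5%.

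Of 21 regulators of growth and of TOP mRNAs, 7 were higher and 5 lower after loss of Grn (median -0.045), against 23.1% and 21.5% of all tested genes, so the counts set this list little apart. Eif4ebp2, a repressor of cap-dependent initiation, rose by 0.88 ± 0.13 (SE), adjusted p = 2.91e-05, and Sesn2 and Ddit4, stress-induced inhibitors of mTORC1, rose by 0.88 ± 0.12 (SE), adjusted p = 8.73e-06 and 0.87 ± 0.11 (SE), adjusted p = 5.96e-06. Mxd1, an antagonist of Myc, rose by 1.02 ± 0.14 (SE), adjusted p = 1.25e-05. All the genes named from this list are among the 7 that rose. The 5 that fell are not named, and the lowest log2 fold change of the list was -0.99. Cell cycle genes had 10 of 30 higher and 1 lower after loss of Grn (median 0.20).

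**Figure D5:**
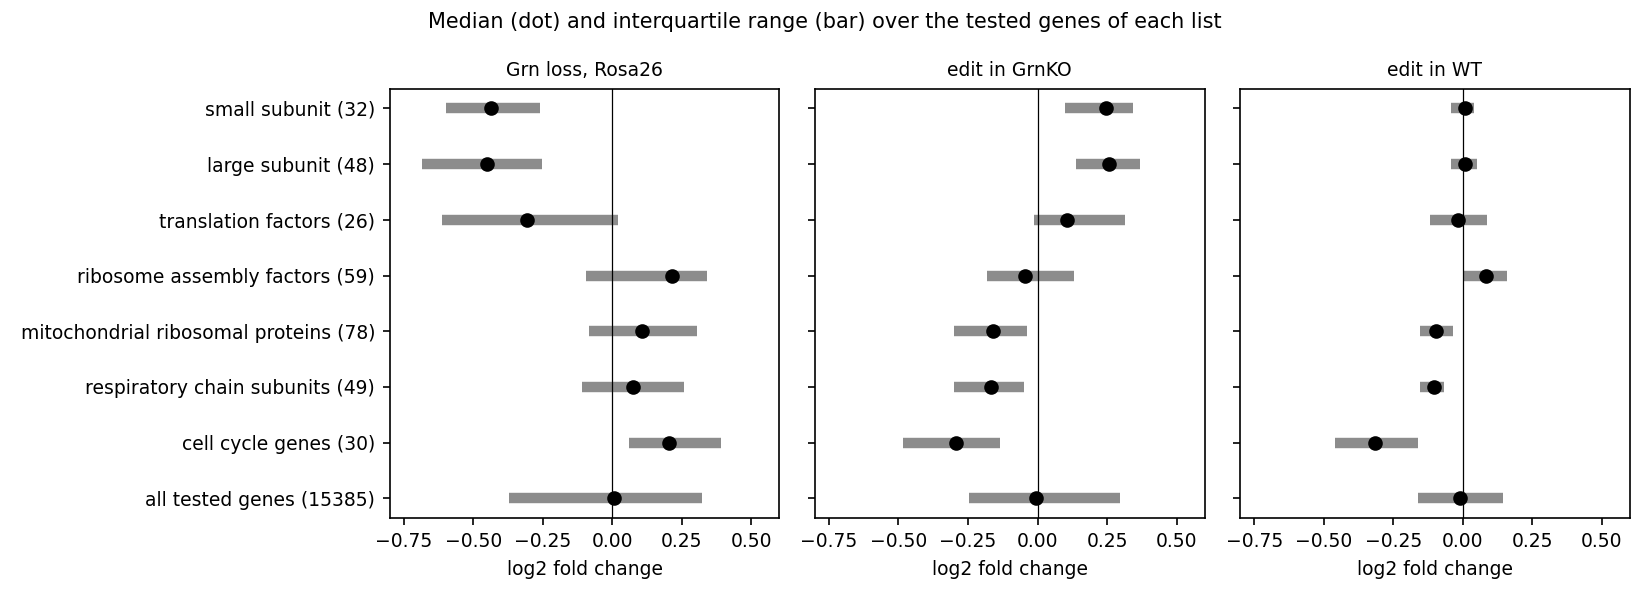
Median (dot) and interquartile range (bar) of the log2 fold change (horizontal axes) over the tested genes of 7 gene lists and over all tested genes (vertical axis, with the number of genes), in 3 comparisons. The row labelled translation factors holds the 26 other genes known to start with a TOP tract, not all of which are translation factors. After loss of Grn the medians of the small subunit (-0.44), the large subunit (-0.45) and these TOP genes (-0.31) are below 0. That of ribosome assembly factors (0.21) is above it.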

How the data were processed

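Libraries were made by 3′ tag sequencing with a QuantSeq FWD kit with molecular identifiers, per the labels' protocols, so each count stands for a transcript's end and not its length. The authors deposited estimated counts per gene (expected counts, unscaled) rounded to 2 significant digits, and CPM multiplied by a scaling factor per library (here called a signal, since the sums of the deposited columns differ between libraries). The submitters' processing notes name STAR 2.7.9a, Salmon 1.10.1, edgeR 4.6.2, R 4.5.1 and GRCm39, without roles; how molecular identifiers were used is not given in the sources used here. Of the nonzero counts, 11.0% were not whole.

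Counts were rounded to whole numbers and fitted over all genes with edgeR 4.0.16 (quasi-likelihood, robust; filterByExpr; TMM) in R 4.3.3, with 4 groups and the batch as a term, and each comparison as a contrast; 15385 genes were tested. Adjusted p-values are Benjamini-Hochberg over all of them, and a gene is called under 0.05. SE is the fold change divided by the root of F. CPM used TMM-scaled library totals, and within-batch log2 differences a pseudocount of 0.5. The batch pairs the libraries by the labels; same-batch libraries deviated together within a genotype (mean r 0.523 in WT and 0.569 in GrnKO) and little across genotypes (0.0592 to 0.137). Whether both libraries of a genotype in a batch share a marrow was not tested. The fit has no term for such pairs within a genotype. If they are pairs, the SE between genotypes is too small and that of the edit within a genotype too large. With only the groups compared, 63 genes were called after loss of Grn, in place of 68. The edit in GrnKO had 62, in place of 53. Edited GrnKO cells had 6 against WT TKO, in place of 19, and 2 against control-edited WT, in place of 32. On simulated counts for the Grn comparison (15099 genes), 100% of genes changed 0.5-fold and 72.9% of those changed 0.7-fold were recovered, with 3 false calls of 171. Of genes changed 1.4-fold 64% were recovered, and of those changed 2-fold 98.0%. The simulated libraries were independent, with no batch effect and no shared deviation within a genotype and batch. The share of false calls therefore does not carry over to the data. Alternatives used DESeq2 1.42.0 and limma 3.58.1.

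The genes and lists were chosen with earlier results of these data known. The genes described singly were mainly those of lowest and highest fold change in each comparison, those called against the majority, X-linked genes, paralogues and stalk proteins. Values in every library are given for some of them, and only a range, a mean or a fold change for others. Rpl4, Rpl5, Rpl11, Rps6, Rps15 and Rps19 were added for their roles or sequences after their values were seen. Copies were found by BLAST of the last 200 bases of transcripts at 97% identity. Promoter windows are from RefSeq GRCm38.p6, and 61 of the genes matched by symbol; GRCm38.p6 differs from the build named for the files, so no file coordinate is used. Results of some genes are not reported here. Proteins and genes on chromosome 18 are not printed.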

Additional observations from a re-analysis of the deposited data

Results flagged for a closer look

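Of 104 sets of 4 libraries examined, 4 had 1 library far from the other 3, where chance gives about 1 in 20. Rps27 stood at 560.3 CPM in GrnKO Rosa26 of batch 4, against 663.9 to 679.2 in the other batches. Rps27l stood at 168 CPM in WT TKO of batch 4, against 192.6 to 197.4. Rps4l stood at 8.627 CPM in WT TKO of batch 4, against 4.661 to 5.247. The ratio of large to small summed counts was 1.169 in WT TKO of batch 2, against 1.163 to 1.164.

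The log2 change after the edit differed between GrnKO and WT cells for 9 of the genes named, by the interaction term of the edgeR fit. For Rpl10 the difference was 0.75 (adjusted p = 0.00185; 0.60 in GrnKO and -0.15 in WT), for Rpl10a 0.49 (adjusted p = 0.0165) and for Rpl22 0.48 (adjusted p = 0.0369). For Rpl26 it was 0.60 (adjusted p = 0.00337), for Rpl35a 0.54 (adjusted p = 0.00372) and for Rps2 0.64 (adjusted p = 0.0067). For Rps27 it was 0.46 (adjusted p = 0.00496), and for its relative Rps27l 0.47 (adjusted p = 0.00571). For Rpl6l, annotated as a pseudogene, it was 1.35 (adjusted p = 0.00346), with -0.29 in WT.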

How the results depend on the processing

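After loss of Grn in control-edited cells, 54 to 74 of the 80 genes were called under the settings tried (68 as reported; 54 without Y-linked libraries; 74 with a filter at a mean of 5 CPM; 62 to 69 with 1 library or batch left out; 62 with no replicate block). After the edit in GrnKO the count of 53 became 35 with no filter on low counts, 37 with no replicate block, and 36 to 55 with 1 library or batch left out; after the edit in WT it was 0 under all settings. Against WT TKO the count of 19 became 35 with DESeq2, 1 with no replicate block, 6 with only the groups compared, 0 in the libraries without Y-linked transcripts and 0 to 36 with 1 library or batch left out. The difference between the edit's effects, 26 genes, became 16 (14 larger and 2 smaller in GrnKO) with limma-trend on the authors' CPM, 6 with no replicate block, 41 without Y-linked libraries and 2 to 39 with 1 library or batch left out; it has no value with only the groups compared. Edited GrnKO against control WT, 32 genes, became 21 with total count scaling, with no filter and with limma-trend, 2 with no replicate block or only the groups compared, 14 without Y-linked libraries and 2 to 45 with 1 library or batch left out. Rpl27 reversed from -0.25 to 0.073 after loss of Grn in the libraries without Y-linked transcripts, where only batch 1 holds both genotypes. The cause was not tested. The share after the edit in GrnKO was 0.17 (log2) by the sum of the authors' CPM in place of 0.24, and the large to small ratio after loss of Grn was -0.032 without the 3 most abundant genes in place of -0.011. Limma-trend moved the median of all genes to 0.11 after loss of Grn and -0.11 for the difference between edits. The share of all calls that were higher went from 51.7 to 65.7% after loss of Grn, from 45.3 to 34.6% for the edit in GrnKO, from 65.2 to 78.7% for the edit in WT, from 43.2 to 24.3% for the difference between edits and from 50.7 to 66.5% for edited GrnKO against control WT. With no filter it was 61.9%, 32.1% and 62.5% for loss of Grn, the difference between edits and edited GrnKO against control WT, and with total count scaling 70.0% for the last. Of 9600 single-gene values with 1 library or batch left out, 8807 kept their status, 678 lost a call and 115 became called. The 8807 include genes that were not called in either fit, so they do not give the share of calls that were kept. Adding near-identical pseudogene copies and leaving out Y-linked libraries were chosen after seeing the data. Rounding of deposited counts and the shallow WT Rosa26 library of batch 1 limit small differences.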
